A study of Mus musculus with 2 samples.

Results

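The suppressors of cytokine signalling (SOCS) are a family of 8 mouse genes, Cish and Socs1 to Socs7, and all 8 were found by symbol among 21827 protein-coding genes of the GENCODE annotation of mm10. Members were taken by name, as the mouse genes of this family. Chromatin was read by DNase-seq, an assay that maps where the enzyme DNase I can reach and cut the DNA. The tissue was whole spleen of male B6CASTF1/J mice aged 4 days, the F1 cross between the inbred strains C57BL/6J and CAST/EiJ. There was 1 group of 2 biological replicates and hence no contrast of conditions. Both carry the same donor label and different animal numbers, so spread between them may be partly technical.

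SOCS proteins close a feedback loop. A cytokine bound to its receptor activates JAK kinases, and these phosphorylate STAT transcription factors. STATs switch on some of the SOCS genes, whose products then block the receptor or the kinase. Each protein pairs an SH2 domain, which binds phosphorylated tyrosine, with a SOCS box that recruits an elongin and cullin E3 ubiquitin ligase. In the newborn mouse spleen, which still makes red cells, erythropoietin signals through JAK2 and STAT5, and Cish and Socs3 are among the genes known to respond.

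Replicate 1 held 80323 peaks and replicate 2 held 88723. Peaks that overlap between libraries were merged into 60596 shared regions, 57.7% of all 105096 regions. Signal below is the authors' own value per peak, on a scale that is not stated. Read depth is unknown. Over promoters with a peak in both libraries, the log2 ratio of replicate 1 over replicate 2 had a median of 0.24 (central 95% of 13124 genes, -0.36 to 0.68). Promoters of 5 of 5 erythroid and 4 of 4 B cell markers were open, against 1 of 3 for T cells, 1 of 4 for macrophages and 1 of 3 for spleen stroma. None of 4 markers of other organs was open. The summed erythroid signal was 33.97 in replicate 1 and 22.78 in replicate 2, and the summed B cell signal was 6.34 and 8.42. In bulk tissue, fewer open cells and less opening per cell cannot be told apart.

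Every SOCS promoter was open. A promoter was called open if any shared region came within 1 kb of one of its protein-coding start sites. This held for 8 of 8 SOCS genes and for 59.7% of all protein-coding genes. The stricter peak lists gave 8 of 8 as well, against 54.6% of all genes. Single libraries also gave 8 of 8, against 62.4% of all genes in replicate 1 and 62.8% in replicate 2. By the CpG content at the most upstream start site, 7 of 8 SOCS promoters were CpG-rich (observed over expected of at least 0.5). Across the genome 89.2% of promoters with such a ratio were open (84.2% by the stricter lists), against 23.5% of CpG-poor ones. The remaining gene was Cish, with a ratio of 0.304 at its upstream start site and 0.669 around its strongest promoter region. The median SOCS promoter signal was 7.05, against 5.90 over the 13028 genes with an open promoter.

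Promoter signal, the highest peak within 1 kb of a start site, differed several-fold within the family. Socs7 (11.3 ± 0.636, SD, n = 2) and Socs4 (10.998 ± 1.43) were at the top, and their libraries overlap. Socs3 (7.68 ± 1.69), Socs5 (7.43 ± 0.696) and Cish (6.68 ± 0.327) followed, and the 2 Socs3 values overlap those of both Socs5 and Cish. Socs1 (5.50 ± 0.648), Socs6 (3.36 ± 0.0169) and Socs2 (2.27 ± 0.523) came next, each without overlap with its neighbours in this order. The regions that gave these values were 160 to 340 bp wide. All 8 log2 ratios between the libraries, from -0.24 at Socs1 to 0.47 at Socs2, lay inside the central 95% of all promoters.

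**Figure D1:**
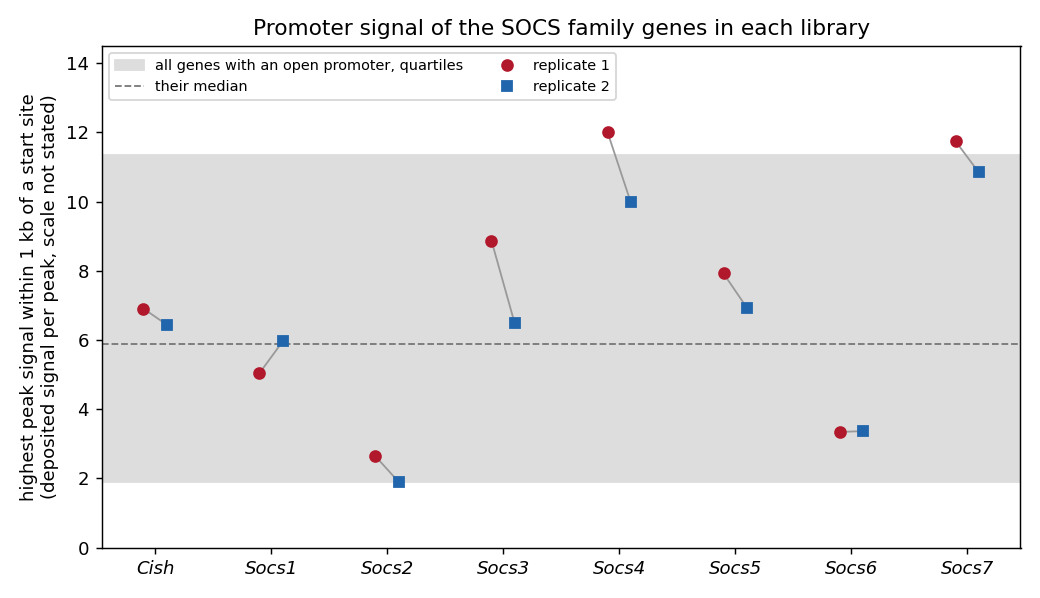
Highest deposited peak signal within 1 kb of a start site (y axis) for each SOCS gene (x axis), with circles for replicate 1 and squares for replicate 2. The grey band and dashed line give the quartiles (1.90 and 11.3) and median (5.90) of all genes with an open promoter; Socs4 and Socs7 reach above the band in replicate 1, and Socs2 sits near its lower edge.

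Cish encodes CIS, which binds phosphorylated cytokine receptors and dampens STAT5 signalling. The gene (ENSMUSG00000032578.7) lies at chr9:107296026-107302784 on the plus strand. Its 1 promoter region, 320 bp centred 50 bp before a start site, had a signal of 6.91 in replicate 1 and 6.45 in replicate 2. That is higher than 54.4% of genes with an open promoter. The stretch is annotated as 5' untranslated exon of a longer Cish transcript and lies in an intron of the antisense pseudogene Gm17040.

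The Cish promoter carries the STAT consensus TTCNNNGAA 4 times within this region, as 2 close pairs. The sites are shown because STAT5 is known to induce this gene, and capitals mark the motif. Both are plus-strand GRCm38 reference sequence from the C57BL/6J genome, chr9:107296654-107296683 and chr9:107296762-107296791.
Cish site 1: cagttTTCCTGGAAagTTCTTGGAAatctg
Cish site 2: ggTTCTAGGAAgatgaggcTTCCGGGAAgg
The motif is its own reverse complement, so both strands are covered by 1 search. The first pair lies under the peaks of both libraries, and the second pair under the wider peak of replicate 2 alone. Of 13028 genes with an open promoter, 7.64% had at least 1 such match in their shared promoter regions and 0.491% had at least 2. At least 4 were found at 3 genes, namely Cish, Bcl6 and the overlapping Gm37419 (the last 2 named after their values were seen). These counts do not correct for the length of the regions. The nearest footprint of both libraries, a short stretch protected from the enzyme, ran from 107296729 to 107296761, between the pairs. That is its extent in replicate 2, 19 to 51 bp past the start site, while in replicate 1 it ran from 22 to 33 bp. No footprint of both libraries touched a Cish motif. A footprint of replicate 2 covered 3 of 9 bases of the first motif, and one of replicate 1 covered 3 of 9 bases of the fourth.

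Around Cish, 14 shared regions lay in the gene body and 50 kb on each side, of which 9 were distal, meaning over 1 kb from any protein-coding start site. The density of 13.1 per 100 kb was above that of 89.3% of all genes, and all 14 regions held a footprint of both libraries. The strongest neighbour was the Mapkapk3 promoter 6116 bp upstream (7.15 and 6.22). A distal region 1596 bp upstream had 4.40 and 3.47. The promoter of 6430571L13Rik, 43780 bp downstream, had 3.97 and 3.71. All 3 were higher in replicate 1. They were picked by the lower of their 2 values, which left out a distal region 4906 bp upstream. That region had 3.33 and 4.57 and was higher in replicate 2.

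Socs1 encodes an inhibitor that binds JAK kinases directly and restrains interferon signalling. The gene (ENSMUSG00000038037.5, chr16:10782240-10785536, minus strand) had 4 shared promoter regions. The strongest was in its intron, 376 bp inside the gene, with 5.04 in replicate 1 and 5.96 in replicate 2. The region on the start site had 4.17 and 3.99, and another 984 bp upstream had 2.81 and 2.99. A weak one 1107 bp inside the gene had 0.871 and 0.527. Socs1 and Socs6 were the SOCS genes whose promoter signal was not higher in replicate 1. B cell markers were also lower in that library, and their part in this was not tested.

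The RefSeq promoter of Socs1 holds no TTCNNNGAA match but 2 overlapping matches to the interferon regulatory factor motif (GAAA, any 2 bases, GAAA), shown in capitals in the 250 bases before the start (GRCm38.p6, chr16:10785537-10785786, minus strand).
Socs1 promoter: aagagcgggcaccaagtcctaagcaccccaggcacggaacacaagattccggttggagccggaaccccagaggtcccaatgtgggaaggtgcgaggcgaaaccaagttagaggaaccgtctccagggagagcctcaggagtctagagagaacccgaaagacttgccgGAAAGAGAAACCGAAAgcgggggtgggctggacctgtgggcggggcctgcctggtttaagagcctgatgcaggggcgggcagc
Searched on both strands, this motif occurs in 3.44% of the 32851 RefSeq promoters of 300 bases. The copy nearer the start, 77 bases before it, shared 6 of its 10 bases with a footprint in each library, and the other shared none. Farther out, a region 394 bp upstream holds 1 TTCNNNGAA match, 448 bp before the start site and untouched by footprints of either library. This region was called as a peak in replicate 1 alone, at 1.24. In replicate 2 all 420 of its bases were nonetheless listed by the authors with a false discovery rate (FDR) down to 7.42e-11, without a peak call. Further regions of the Socs1 window with high signal were a pair at the Rmi2 promoter, 49504 bp (6.80 and 5.12) and 49854 bp upstream (2.85 and 1.86). Between genes, 18196 bp downstream, another had 2.83 and 2.06.

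Socs2 encodes the main restraint on growth hormone signalling. The gene (ENSMUSG00000020027.18, chr10:95385362-95417180, minus strand) had the weakest promoter of the family, with 2.64 in replicate 1 and 1.90 in replicate 2, above 27.9% of open genes. It was also the broadest. Peaks covered 57.3% of the bases within 1 kb of its start sites in replicate 1 and 52.0% in replicate 2, more than at 99.3% of open genes. The strongest region, 340 bp wide, held 6 footprints of both libraries. The other 3 shared promoter regions were 560 to 669 bp wide, with signals from 0.515 to 0.828. Its 2 STAT motifs lie 50 and 61 bp before the start site, and no footprint of either library touched them. Beyond 1 kb Socs2 had 2 shared regions, 1213 bp upstream (1.77 and 1.61) and 43112 bp downstream (0.478 and 0.388).

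The STAT pair of Socs2 and the first pair of Cish have the same spacing, with starts 11 bases apart. Of all 60596 shared regions, 121 held at least 2 matches and 3 held a pair at this spacing. These were the promoter regions of Cish and Socs2 and a weak region (0.522 and 0.572) 17299 bp upstream of Slc4a7. The spacing was chosen after the values were seen. Neighbouring matches with starts 7 to 30 bases apart were found in 0 to 3 regions for each spacing, so 11 bases was not more frequent than several others.

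Socs3 encodes the inhibitor of receptors that use gp130 and of the leptin and granulocyte colony-stimulating factor receptors. The gene (ENSMUSG00000053113.3, chr11:117966079-117970047, minus strand) had 8.87 in replicate 1 and 6.48 in replicate 2 at a region 894 bp upstream of its protein-coding start site. This upstream region spans the 5' end of the annotated gene, at 117970047, and overlaps a Socs3 exon. The region on the protein-coding start site had 6.04 and 4.45. Both were higher in replicate 1, as were 6 of 8 SOCS promoters and 82.5% of all promoters with a peak in both libraries. With a 500 bp window the upstream region drops out and the Socs3 signal was 5.24 in place of 7.68. With 9 footprints of both libraries within 1 kb, Socs3 had the most of the family, against a median of 5 over open genes.

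Socs3 was the 1 SOCS gene with TTCNNNGAA motifs at its promoter that footprints of both libraries touched. The motif nearer the start site lies 56 bp before it, and the footprint covers 4 of its 9 bases in each library. Another footprint of both libraries on a STAT motif lay 13198 bp downstream of the Socs1 start site, in a weak region (0.532 and 0.662), and covered 6 of 9 bases. Both sites have the same 9 letters. They are given on the strand of their gene, at chr11:117969229-117969257 and chr16:10772329-10772357 of GRCm38.
Socs3 site: ggccgggcagTTCCAGGAAtcggggggcg
Socs1 distal site: tgagtctgagTTCCAGGAAgcgataacgc
In a count over whole windows, a match had to lie within a footprint widened by 5 bp on each side. By that rule these were the 2 sites found, and 2 of 8 SOCS genes had a footprinted STAT motif, against 8.16% of all genes, which have windows of other lengths. With nothing added to the footprints no SOCS gene had one.

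The RefSeq start of Socs3 lies upstream of the GENCODE one, and its promoter (GRCm38.p6, chr11:117969367-117969616, minus strand) holds a further STAT match, in capitals.
Socs3 promoter: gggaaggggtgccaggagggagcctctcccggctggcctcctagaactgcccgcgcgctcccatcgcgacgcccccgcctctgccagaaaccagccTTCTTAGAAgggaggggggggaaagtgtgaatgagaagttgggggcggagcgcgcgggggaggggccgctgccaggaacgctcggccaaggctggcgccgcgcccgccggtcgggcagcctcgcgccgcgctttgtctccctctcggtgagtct
This match, 329 bp before the GENCODE start, lay outside the shared regions. A footprint of both libraries touched it too, covering 3 of its bases in replicate 1 and 2 in replicate 2. Of all RefSeq promoters in the table, 8.30% hold at least 1 match. Cish, Socs1, Socs3 and Socs4 were in the table, and Socs2, Socs5, Socs6 and Socs7 were not.

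**Figure D2:**
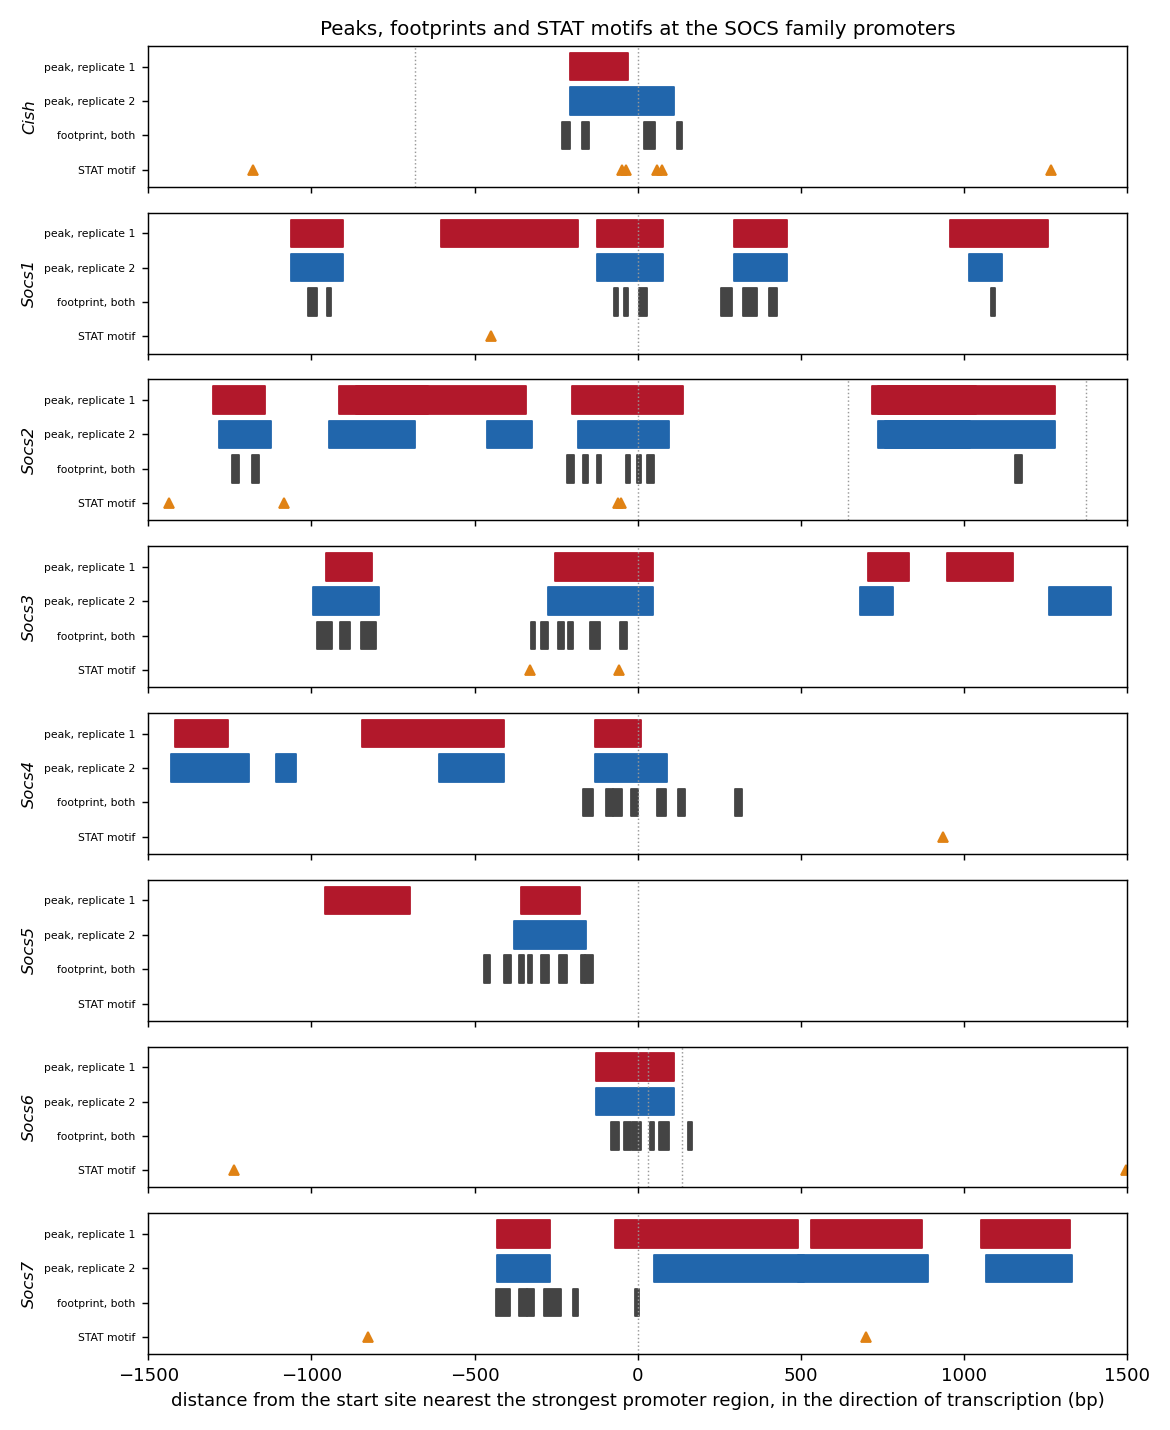
Peaks of each library, footprints found in both, and STAT motifs (TTCNNNGAA, triangles) along each SOCS promoter, against distance in bp from the start site nearest the strongest promoter region; dotted lines mark start sites. The close pairs of triangles at Cish and Socs2 and the single one over a footprint at Socs3 are seen near 0, while Socs5 has none.

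The surroundings of Socs3 were also rich in open chromatin, with 17 shared regions (16.4 per 100 kb, above 94.3% of genes), 12 of them distal. The strongest outside its own promoter was the Pgs1 promoter 17644 bp upstream (8.16 and 5.89). A region 5606 bp downstream of the start site, beyond the end of the gene, had 5.71 in replicate 1 and 6.35 in replicate 2. One in a Pgs1 exon 31524 bp upstream had 4.34 and 2.45. At a log2 ratio of 0.83, it was the 1 shared region of 100 around SOCS genes outside the central 95% of all shared regions (-0.56 to 0.75).

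Socs4 and Socs5 encode closely related proteins best known for acting on the epidermal growth factor receptor. Socs4 (ENSMUSG00000048379.9, chr14:47276931-47296102, plus strand) had 12.01 in replicate 1 and 9.986 in replicate 2. Its region also lies within 1 kb of the start of Wdhd1, a DNA replication factor transcribed the other way, so the signal cannot be assigned to 1 of the 2 genes. The stretch of RefSeq promoter between the Wdhd1 exon and the Socs4 start (GRCm38.p6, chr14:47276858-47276919, plus strand) holds the GC box CCGCCC, in capitals.
Socs4 promoter: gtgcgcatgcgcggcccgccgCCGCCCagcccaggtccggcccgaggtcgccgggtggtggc
Downstream, the Mapk1ip1l promoter had 8.95 and 8.11 at 21299 bp. The strongest distal regions of Socs4 were weak by comparison, with 1.67 and 1.48 at 36121 bp upstream and 1.57 and 1.28 at 58059 bp downstream.
Socs5 (ENSMUSG00000037104.9, chr17:87107679-87137839, plus strand) had 7.92 and 6.94 at a region 269 bp upstream that held 6 footprints of both libraries. Open chromatin around it was sparse, with 2 shared regions in 130.2 kb, its promoter included. The other was 43548 bp upstream, at 0.694 and 0.482. A region 829 bp upstream was called in replicate 1 alone (0.661), while all 260 of its bases were listed in replicate 2 with an FDR down to 5.57e-08.

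Socs6 and Socs7 have been linked to insulin and other receptor tyrosine kinase signalling. Socs6 (ENSMUSG00000056153.15, chr18:88665224-88927481, minus strand) had 3.34 in replicate 1 and 3.37 in replicate 2, the closest match between libraries in the family. Its 362.3 kb window held 8 shared regions, and 3 of them lay in its own introns, led by one 123546 bp inside the gene (1.89 and 1.52). The Rttn promoter, 77368 bp upstream, had 6.87 and 4.89, more than Socs6 itself. Socs7 (ENSMUSG00000038485.5, chr11:97362551-97398542, plus strand) had 11.7 and 10.8 at a region 351 bp upstream. A second, 960 bp wide and over its start site and first exon, joined overlapping peaks. The highest had 1.74 in replicate 1, 530 to 869 bp past the start, and 1.19 in replicate 2, 490 to 889 bp past it. On the start site itself lay a peak of replicate 1 alone, at 1.36. Peaks covered 53.0% and 49.98% of the bases within 1 kb. At 31 shared regions, 22.8 per 100 kb, its window was denser than that of 98.4% of genes. Of the 31, 18 lay inside the neighbouring gene Arhgap23, 16 of them in its introns. The strongest of these, 72709 bp from the Socs7 start, had 12.2 and 9.55, close to the Socs7 promoter itself. Another, at 65749 bp, had 6.84 and 5.02. The Mrpl45 promoter, 46821 bp upstream, had 20.9 and 16.7, the highest of the 100 shared regions around SOCS genes.

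**Figure D3:**
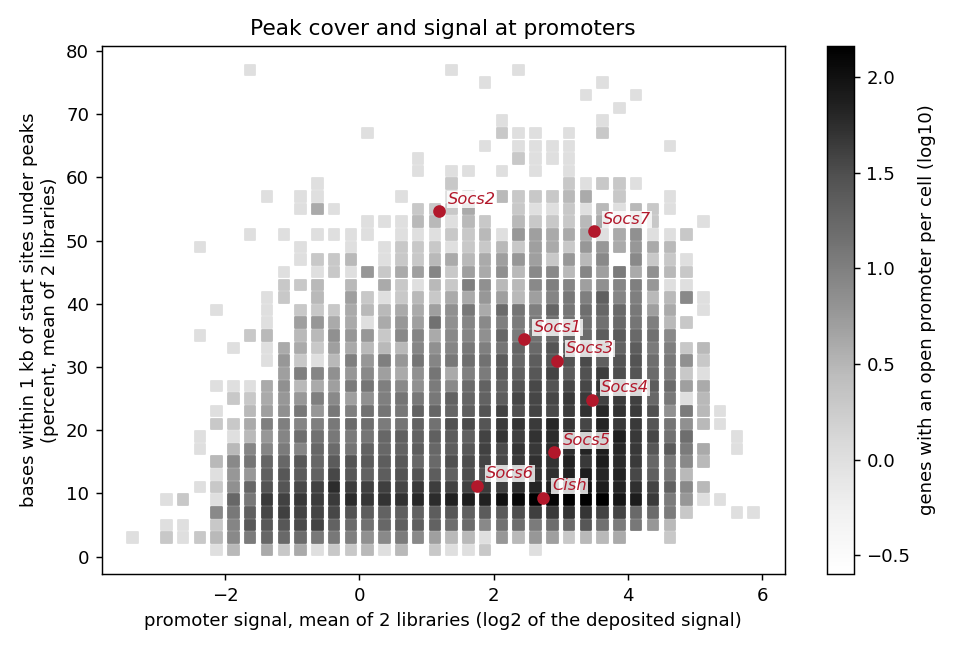
Share of bases within 1 kb of start sites under peaks (y axis, percent) against log2 promoter signal (x axis), both as means of 2 libraries, with grey cells shaded by the number of genes with an open promoter (log10). Socs2 and Socs7 lie near the top of the cloud in cover and differ in signal, and Cish and Socs6 lie low in cover.

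The 8 gene bodies with 50 kb on each side held 134 regions, 100 of them shared. Of these 100, 18 were at SOCS promoters, 16 at other promoters and 66 distal, with 29 of the distal in introns, 26 between genes and 11 in exons. A footprint of both libraries lay in 77 of the 100, against 77.8% of all shared regions. The median log2 ratio of replicate 1 over replicate 2 was 0.21, against 0.16 over all shared regions. Of the 34 regions seen in the longer list of 1 library, 18 were peaks of replicate 1 (0.398 to 1.24) and 16 of replicate 2 (0.229 to 0.871). Among the 16, one 31827 bp upstream of Socs3 and one 79162 bp past the Socs7 start overlapped a stricter-list peak of replicate 1. These were thus not particular to replicate 2. At 4 of the 18 and 4 of the 16, the other library had bases in its FDR list.

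**Figure D4:**
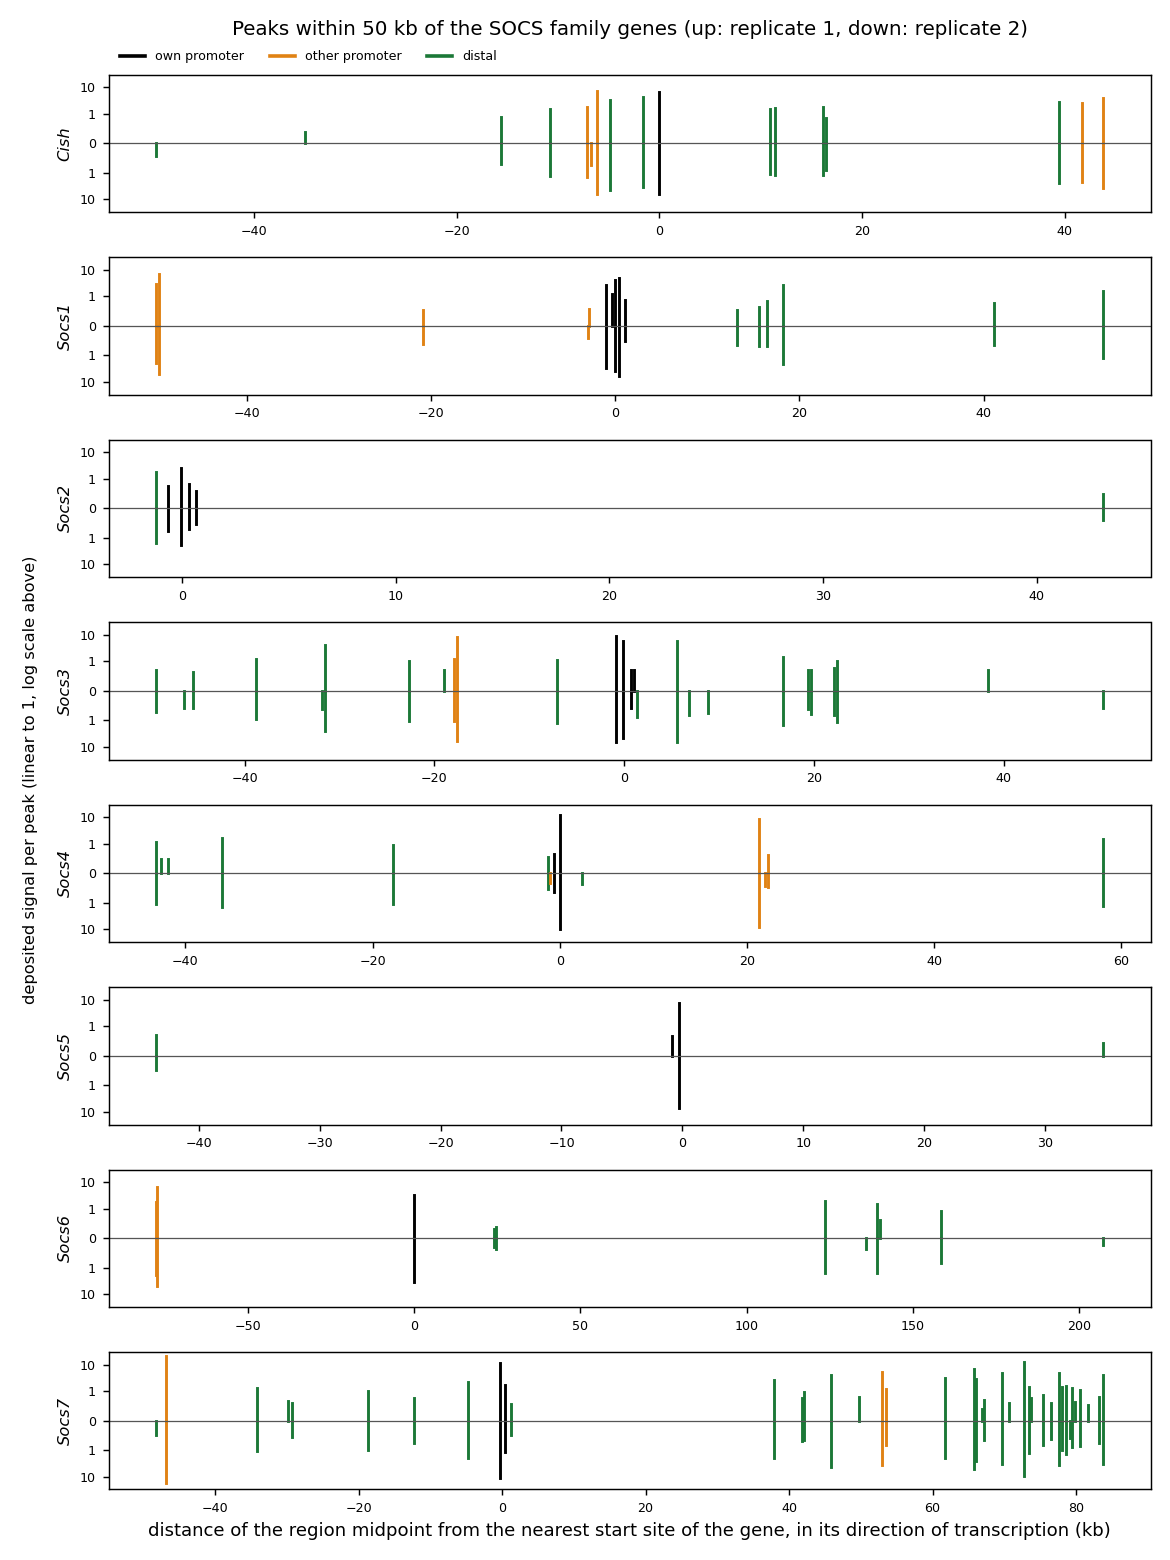
Deposited signal of every region within each gene body and 50 kb on each side, upward for replicate 1 and downward for replicate 2 (log scale above 1), against distance from the nearest start site of the gene in kb, with black for SOCS promoters, orange for other promoters, green for distal regions, and an x range of its own for each gene. Socs7 has 31 shared regions and Socs5 has 2. Bars on 1 side of the line are the 34 regions seen in the longer list of 1 library.

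Within 1 kb of SOCS start sites 55 footprints were found in both libraries, 4 at Cish and up to 9 at Socs3, and 43 of them lay inside a shared region. At least 1 was present at 8 of 8 SOCS genes and at 94.2% of open genes. Their median width was 22 bp, against 21 bp for all footprints of both libraries. The GC box CCGCCC, which SP and KLF factors bind, was the most frequent of the 11 motifs in them. Searched on both strands in 30 bp centred on each footprint, it was present in 34.5% of the 55 and in 14.2% of all 124484. The latter lie at promoters and elsewhere and were not matched for CpG content. Counting footprints widened by 5 bp, 8 of 8 SOCS genes had one on a GC box, against 61.4% of open genes.

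Motif matches were counted in the 18 shared SOCS promoter regions and the 66 distal ones. The GATA motif AGATAA, bound by the erythroid factor GATA1, was in 0 of 18 SOCS promoter regions and 8 of 66 distal ones (12.1%), against 8.72% of all shared regions, each taken as 200 bp on its midpoint. The AP-1 motif TGANTCA was in 0 of 18 and 7 of 66 (10.6%), against 5.25%. With 18 promoter regions, counts of 0 are close to these shares of all regions. STAT matches were in 3 of 18 promoter regions (16.7%) and 5 of 66 distal ones (7.58%), against 4.43%. GC boxes were in 12 of 18 promoter regions (66.7%) and 16 of 66 distal ones (24.2%), against 28.7%. The shares of all shared regions pool promoters with distal sites, so they are not a promoter background. Of the 32851 RefSeq promoters of 300 bases, 35.7% held a GC box, in a longer window and without matching for CpG content. Regions of 1 gene share a locus and are not independent, so these shares are descriptions.

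The genes of the loop around the SOCS proteins were mostly open too. Of 61 genes listed, 56 had open promoters (91.8%) beside 59.7% of all genes, and 46 of the 61 were CpG-rich. All 4 JAK kinases were open, led by Jak1 (18.99 in replicate 1 and 15.82 in replicate 2) and Jak2 (14.8 and 10.3). All 7 STAT genes were open, led by Stat3 (30.7 and 33.2) and Stat2 (15.2 and 12.3). The 5 partners of the SOCS box in its E3 ligase were all open, led by the RING proteins Rbx1 (24.66 and 19.002) and Rnf7 (19.6 and 15.0).

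Among 12 other inhibitors of cytokine signalling, 11 were open, led by the SUMO ligases Pias4 (30.7 and 28.6) and Pias1 (25.6 and 21.1). The phosphatase gene Ptprc was not, with no peak in replicate 1 and 0.396 in replicate 2. Receptors that SOCS proteins restrain were open in 17 of 20 cases, at a median of 0.854, the lowest of the 6 groups. By the stricter peak lists 12 of the 20 were open, beside 54.6% of all genes. The interferon receptor genes Ifnar1 (23.3 and 19.1) and Ifngr1 (18.99 and 18.59) led this group, and Il2rb and Lepr had no promoter peak in either library. Of 13 other SOCS box genes 12 were open, led by Spsb3 (19.3 and 14.1) and Spsb1 (13.2 and 13.6), and Asb2 had no promoter peak.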

How the data were processed

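DNase-seq of 2 spleen libraries was used. The authors deposited, per library, a longer peak list (used here), a stricter one (tried), footprints, and stretches of bases with an FDR. Peaks carry a deposited signal of unstated scale. Signals under 1 came in steps, of 0.00538 for replicate 1 and of 0.00409 for replicate 2 (tolerance 0.02 of a step). Footprints carry a deposited FDR (q-value), 0.01 in every line, so they were not ranked. The build is mm10 per the labels. The aligner, the callers and how CAST/EiJ reads were placed are unknown, being not given in the sources used here. Depth is unknown, so no counting interval is given.

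Peaks overlapping by at least 1 bp were merged, with the highest peak per library as the signal. Footprints were merged likewise, so a footprint of both libraries spans all bases found in either. Percentiles are over GENCODE vM21 basic protein-coding genes (41406 start sites). CpG ratios are over 1 kb. Motifs were searched in GRCm38.p6 (mm10), with promoters from RefSeq. Python 3.11.15, numpy 2.4.6, pandas 2.3.3, pysam 0.24.0 and bedtools 2.31.1 were used, and the interval and motif steps were tested on simulated data. With 1 group no test was made. The members, pathway list, motifs and alternatives were chosen with earlier results of these data known. Named were all members, the 2 strongest and up to 2 closed genes of each pathway group, and up to 3 strongest further regions per member. Strength was ranked by the lower of the 2 library values. Genes outside this rule are marked where they appear.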

Additional observations from a re-analysis of the deposited data

How the results depend on the processing

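All 8 SOCS promoters were open under each of 8 alternatives: the stricter list, windows of 500 and 2500 bp, a reciprocal overlap, stronger peaks, each library alone, and start sites of the comprehensive annotation (added after seeing the data). The pathway count was 49 to 57, against 56. With the stricter list it was 50, and the receptors went to 12, against 17. Shared regions around the genes numbered 100, against 73 with the stricter list, 73 with stronger peaks and 89 with a reciprocal overlap. With 20 kb on each side there were 62 and with 100 kb 159, which differ by construction. Single libraries gave 121 to 122. Footprints within 1 kb numbered 86 to 92 in single libraries, against 55 found in both and 47 with a reciprocal overlap. The count of genes with a footprinted STAT motif was 2, and 0 with nothing added to the footprints, which cover the motifs in part. Of 32 gene-level signals under settings that keep both libraries, 31 were identical to the main value, since the highest peak signal was unchanged. They are thus no measure of spread. Socs3 moved, to 5.24 within 500 bp. No paired analysis was possible because both libraries belong to 1 group. Depth is unknown, so weak regions of 1 library may lie under the detection limit of the other.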

Other observations

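Among the 13028 genes with an open promoter, 8 had at least 3 matches to the STAT motif TTCNNNGAA in shared promoter regions. All were named after their values were seen. Bcl6, a transcriptional repressor, had 5, and the overlapping Gm37419 shares them. Cish had 4. Osm, which encodes the cytokine oncostatin M, had 3, as did Tlr6, Cast, Abhd17b and 1110059E24Rik. Socs2 was among the 64 genes with at least 2. These counts depend on the length of the regions, which was not corrected for.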
